A study of Homo sapiens with 18 samples.

Results

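The genes described here are CACYBP and 9 genes of the heat shock response that is driven by heat shock factor 1 (HSF1): HSPA1A, HSPA1B, HSPA8, HSPH1, DNAJB1, HSP90AA1, HSPD1, HSPE1 and BAG3. They were chosen by symbol from the 54425 genes of a table of ATAC-seq counts, and all 10 passed the filter on low counts that left 17660 genes for testing. CACYBP was selected on how AF4-MLL cells differed from MLL-AF4 cells on day 3 in these same libraries, whereas the 9 heat shock genes were taken from the known pathway around it. ATAC-seq counts the places where a transposase can insert into open DNA, so a count measures accessible chromatin at a gene and not its RNA.

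The libraries came from HEK293T cells, a human embryonic kidney line, that carried fusion genes of the t(4;11) leukemia translocation in Sleeping Beauty transposon vectors. AF4-MLL cells held an inducible AF4-MLL construct and MLL-AF4 cells an inducible MLL-AF4 construct. Co-expression cells held a constitutive MLL-AF4 construct together with the inducible AF4-MLL construct. In every group doxycycline (1 µg/ml, 48 h) turned the inducible construct on, and each setting was sampled on day 3 and on day 28 with 3 libraries, giving 18 libraries in 6 groups. By the study's methods the co-expression cells were a stable MLL-AF4 line, selected with puromycin, that received the AF4-MLL construct by transient transfection. These cells were given blasticidin together with doxycycline, for 48 h only. In them, blasticidin and the recent transfection therefore cannot be told apart from the difference between day 3 and day 28. Doxycycline was removed on day 3, so the day 28 cells had grown on without it. In all 3 settings recent doxycycline therefore cannot be told apart from the difference between day 3 and day 28. In the co-expression cells the transiently delivered plasmid was lost as the cells divided. Co-expression and MLL-AF4 cells also differed in whether MLL-AF4 was constitutive or inducible. In comparisons between them this cannot be told apart from the addition of AF4-MLL. Cells without fusion genes were not analysed here, so every comparison is between settings or between days.

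HSF1 is a transcription factor that, under protein stress, binds repeated short elements in front of chaperone genes and raises their transcription. The chaperones it controls hold, refold or hand over unfolded proteins, and cancer cells often depend on them. CACYBP (calcyclin-binding protein, also called SIP) is an adaptor that joins SIAH1 to SKP1 in a ubiquitin ligase complex and also binds S100 proteins.

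The libraries held between 442159 and 3539937 counts, with a median of 1254820. The 37 mitochondrial genes took between 32.7% and 45.6% of a library's counts on day 3 and between 63.6% and 68.5% on day 28. Values below are CPM, counts divided by a library size that TMM normalisation has scaled so that most genes match between libraries. All 8 marker genes that are accessible in the HEK293 line, PAX2 and VIM among them, passed the filter, but so did 3 of 6 genes of other cell types, PTPRC and MYH6 among them. Counts per gene were therefore a weak check of the cell type. The sum of the 10 genes lay between 498 and 620 CPM in all libraries, with a mean of 506 ± 6.06 (SD, n = 3) on day 28 in AF4-MLL cells as the lowest and 593 ± 24.3 in MLL-AF4 cells on day 3 as the highest.

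Promoter letters from RefSeq (GRCh38.p14) covered 250 bases before to 50 bases after each annotated start, in 15 windows for the 10 genes. They were searched for exact matches to pairs of the heat shock element only. Head-to-head pairs of the element, GAANNTTC, occurred in 6 of the 10 genes and in 8.21% of 27305 genes. Tail-to-tail pairs, TTCNNGAA, occurred in 3 of the 10 genes and in 9.46% of all genes. A run of 3 units, in which a head-to-head and a tail-to-tail pair overlap by the unit in the middle, occurred in HSPA8, HSP90AA1 and HSPD1 and in 0.608% of all genes. Either pair reads the same on both strands. The stretches that hold them are printed on the gene's own strand, with the element in capitals and the build as above.
HSPA1A, plus strand, chr6:31815426-31815455: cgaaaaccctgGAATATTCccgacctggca
HSPA1B, plus strand, chr6:31827622-31827651: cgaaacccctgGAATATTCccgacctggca
HSPA8, minus strand, chr11:123062346-123062374: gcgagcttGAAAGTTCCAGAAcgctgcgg
HSPA8, minus strand, chr11:123062171-123062199: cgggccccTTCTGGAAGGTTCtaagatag
HSP90AA1, minus strand, chr14:102087104-102087133: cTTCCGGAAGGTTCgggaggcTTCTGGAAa
DNAJB1, minus strand, chr19:14518456-14518485: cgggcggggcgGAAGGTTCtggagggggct
HSPD1, minus strand, chr2:197500062-197500090: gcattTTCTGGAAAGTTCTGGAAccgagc

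The HSPA1A and HSPA1B elements lay at positions −106 to −99 and −105 to −98 from their starts and were the same 8 letters. The upstream 250 bases of these 2 genes were identical in 235 of 251 aligned columns (93.6%), against 43.4% between HSPA1A and HSPA8, so that reads may be shared or dropped between HSPA1A and HSPA1B in the counting. The HSPA8 elements lay at −230 to −218 and at −55 to −43. The HSPD1 element lies downstream of the first annotated start of that gene. The elements printed for DNAJB1, HSP90AA1 and HSPD1 lay before the second annotated start of each gene, at −77 to −70, −88 to −61 and −245 to −228, and DNAJB1 held a further head-to-head pair at −47 to −40 from that start and another just downstream of the third annotated start. No window of CACYBP, HSPH1, HSPE1 or BAG3 held these letters. This does not show that they lack the element, since inexact matches and bases outside the windows were not searched. The HSPD1 element lies upstream of the HSPE1 start, outside the HSPE1 window. A TATAAA box was found in HSPA1A and HSPA1B and on either strand in 14% of all genes, and CCAAT on either strand in 5 of the 10 genes and in 39.7% of all genes.

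**Figure D1:**
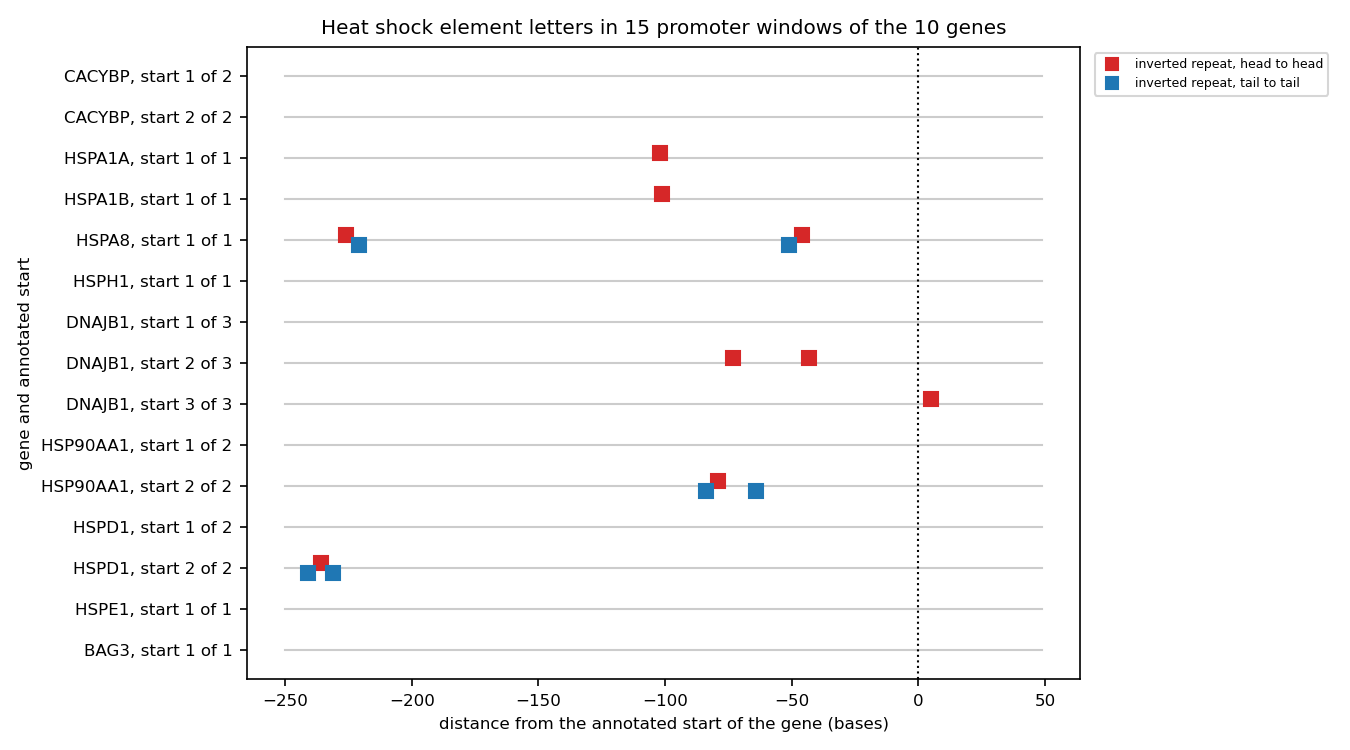
Positions of heat shock element letters in the 15 promoter windows of the 10 genes. The x axis is the distance in bases from the annotated start (dotted line), each row is 1 window, red squares are head-to-head and blue squares tail-to-tail pairs. HSPA8, HSP90AA1 and HSPD1 show both kinds side by side, and CACYBP, HSPH1, HSPE1 and BAG3 show none.

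CACYBP (ENSG00000116161, chr1:174999435-175012027, plus strand) was the gene from which this set was drawn. In MLL-AF4 cells on day 3 its counts were 129, 113 and 119, or 144, 143 and 138 CPM. The AF4-MLL libraries of day 3 had 93.2, 110 and 84.0 CPM. The co-expression libraries of day 3 had 93.3, 110 and 128 CPM. On day 28 the CPM values were 90.6, 104 and 85.9 in MLL-AF4 cells, 111, 89.5 and 99.7 in AF4-MLL cells and 108, 116 and 99.7 in co-expression cells. The 3 MLL-AF4 libraries of day 3 thus lay above the other 15 libraries, whose groups all overlapped. Their separation from the AF4-MLL libraries of day 3 follows from the selection of CACYBP. Of all genes tested, 14% had no overlap between MLL-AF4 and AF4-MLL cells on day 3. The share was 19% between MLL-AF4 and co-expression cells on day 3 and 20.4% between the days in MLL-AF4 cells. The share with 1 group apart from all others was not counted. As ordered by mean, the groups ran from MLL-AF4 day 3 (142 ± 3.5 CPM) over co-expression day 3 (110 ± 17.2), co-expression day 28 (108 ± 8.4), AF4-MLL day 28 (100 ± 10.6) and AF4-MLL day 3 (95.7 ± 13.2) to MLL-AF4 day 28 (93.6 ± 9.6), and each neighbour after the first pair differed by less than the SD.

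The log2 difference of AF4-MLL from MLL-AF4 cells on day 3 was −0.60 for CACYBP, which is the value that selected it and is given as a description. The comparison with the same MLL-AF4 libraries of day 3 gave −0.58 for day 28 against day 3 in MLL-AF4 cells and −0.36 for co-expression against MLL-AF4 cells on day 3, and these rest on the libraries that chose the gene. The 50 nearest tested genes on the chromosome had a median of 0.0024 in the first and −0.0582 in the second of these comparisons, both near 0.

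CACYBP could be tested in 4 comparisons that use none of the libraries behind its selection, and edgeR called it in none of them. Day 28 differed from day 3 in co-expression cells by −0.01 on the log2 scale (SE 0.114, edgeR adjusted p 0.99). For co-expression minus MLL-AF4 cells on day 28 the difference was 0.21 (SE 0.118, edgeR adjusted p 0.512) and for co-expression minus AF4-MLL cells 0.14 (SE 0.114, adjusted p 0.69). AF4-MLL cells differed from MLL-AF4 cells on day 28 by 0.07 (SE 0.118, edgeR adjusted p 0.94). In all 4 the libraries overlapped, and with SEs of this size a small difference would not have been detected.

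HSPA8 encodes the constitutive HSC70, the main housekeeping member of the HSP70 family. On day 3 the MLL-AF4 libraries held 125, 100 and 110 CPM, the AF4-MLL libraries 83.3, 68.0 and 74.8 CPM and the co-expression libraries 88.7, 104 and 109 CPM. The AF4-MLL libraries lay below those of both other settings on that day. In each comparison of 2 groups, the libraries did not overlap for 13.4% to 20.4% of all genes tested. The log2 difference of AF4-MLL from MLL-AF4 cells was −0.54, given without a test because this is the comparison that drew the set. In that comparison edgeR called 25 of 17660 genes (0.142%), CACYBP among them by selection. Of the 9 heat shock genes, 6 had a positive and 3 a negative difference there, with a median of 0.0743 beside −0.00415 over all genes tested.

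HSPA8 did not separate in the same way on day 28, when the 3 settings had means of 92.9 ± 13.4, 84.7 ± 11.9 and 86.6 ± 5.2 CPM in MLL-AF4, AF4-MLL and co-expression cells. Co-expression exceeded AF4-MLL cells on day 3 by 0.38 (SE 0.125, edgeR adjusted p 0.114), and MLL-AF4 cells changed from day 3 to day 28 by −0.29 (SE 0.13, adjusted p 0.249). Neither passed the threshold of 0.05. The libraries of the first comparison did not overlap, which held for 16.5% of all genes tested. HSPA8 (chr11:123057489-123062462) has 20 annotated pseudogene copies, of which 17 in the table held 470 counts over all libraries against 2192 for the gene itself, with 3 SNORD14 genes inside it that can share its reads.

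**Figure D2:**
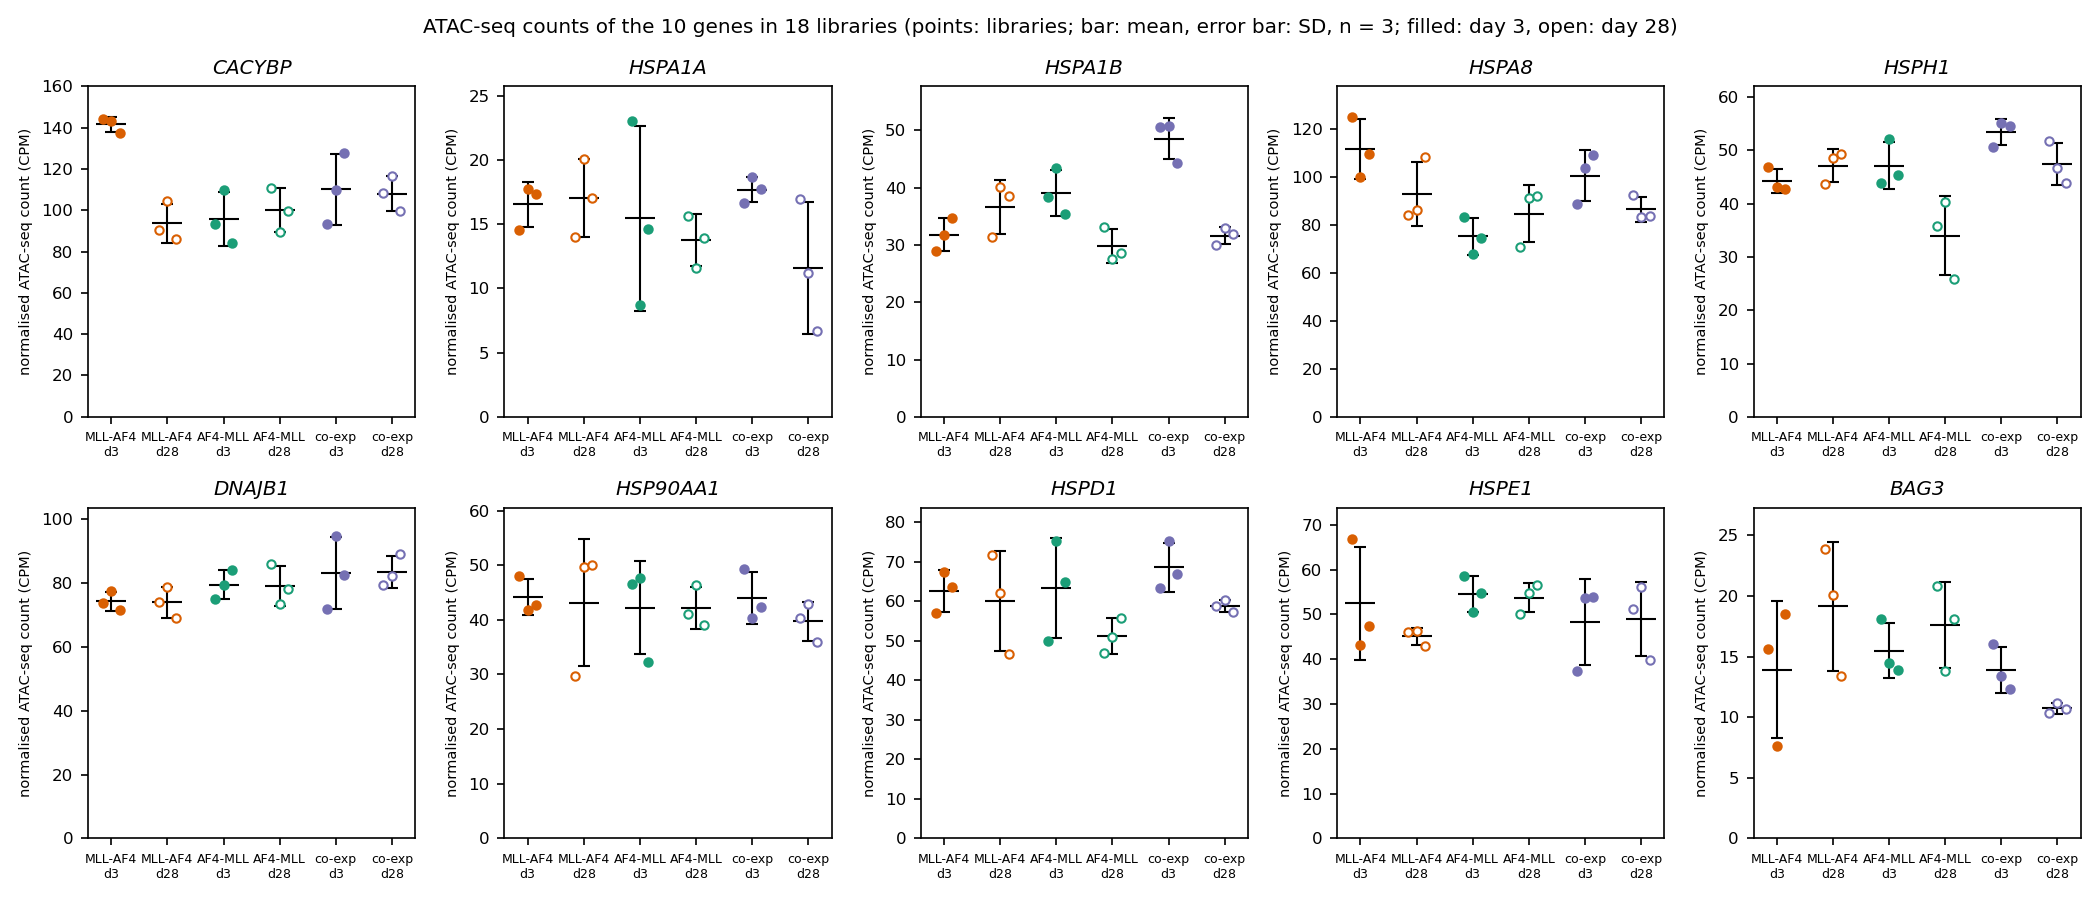
Normalised ATAC-seq counts (CPM, y axis from 0) of the 10 genes in the 18 libraries, by setting and day. Points are libraries (filled day 3, open day 28), bars the mean and error bars the SD (n = 3). CACYBP, selected on AF4-MLL against MLL-AF4 cells on day 3, stands above the rest in MLL-AF4 cells on day 3 at 142 ± 3.5 CPM. HSPA1B is highest in co-expression cells on day 3 at 48.6 ± 3.6 CPM.

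HSPA1B was the only gene of the 9 that passed the test in any comparison. HSPA1A and HSPA1B encode the stress-inducible HSP70 and are neighbours on chromosome 6 (chr6:31815543-31817942 and chr6:31827738-31830254, plus strand), with starts 12195 bases apart. In co-expression cells HSPA1B had counts of 76, 68 and 65 on day 3 (50.7, 50.7 and 44.4 CPM) and of 64, 53 and 24 on day 28 (30.1, 33.0 and 31.9 CPM). All 3 libraries of day 28 lay below all 3 of day 3, and 14.2% of all genes tested had no overlap in this comparison. The mean fell from 48.6 ± 3.6 to 31.7 ± 1.5 CPM, a log2 change of −0.62 (SE 0.165, edgeR adjusted p 0.0353). In bulk nuclei, fewer cells with an open gene and a less open gene in each cell cannot be told apart.

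The call was close to the threshold. Over 26 alternatives the difference kept its sign in all 26 and was called in 17, with adjusted p from 5.88e-14 with no composition scaling to 0.304. It was lost when any single co-expression library of day 28 was left out (replicate 1, log2 −0.57 and edgeR adjusted p 0.304; replicate 2, −0.67 and 0.0926; replicate 3, −0.64 and 0.0622). It was also lost without replicate 1 (−0.60, edgeR adjusted p 0.157) or replicate 2 (−0.60, 0.127) of day 3, with the mitochondrial genes left out (−0.63, 0.0523), in the cyclic loess fit (−0.59, 0.0631), in a fit of these 6 libraries only (−0.61, 0.0626) and in DESeq2 (−0.62, 0.294). The share of mitochondrial counts in co-expression cells rose at the same time from 39.4% ± 5.94 to 65.5% ± 2.61, and its part in the result was not tested beyond the fit without those genes. The 50 nearest tested genes had a median of −0.0173.

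**Figure D3:**
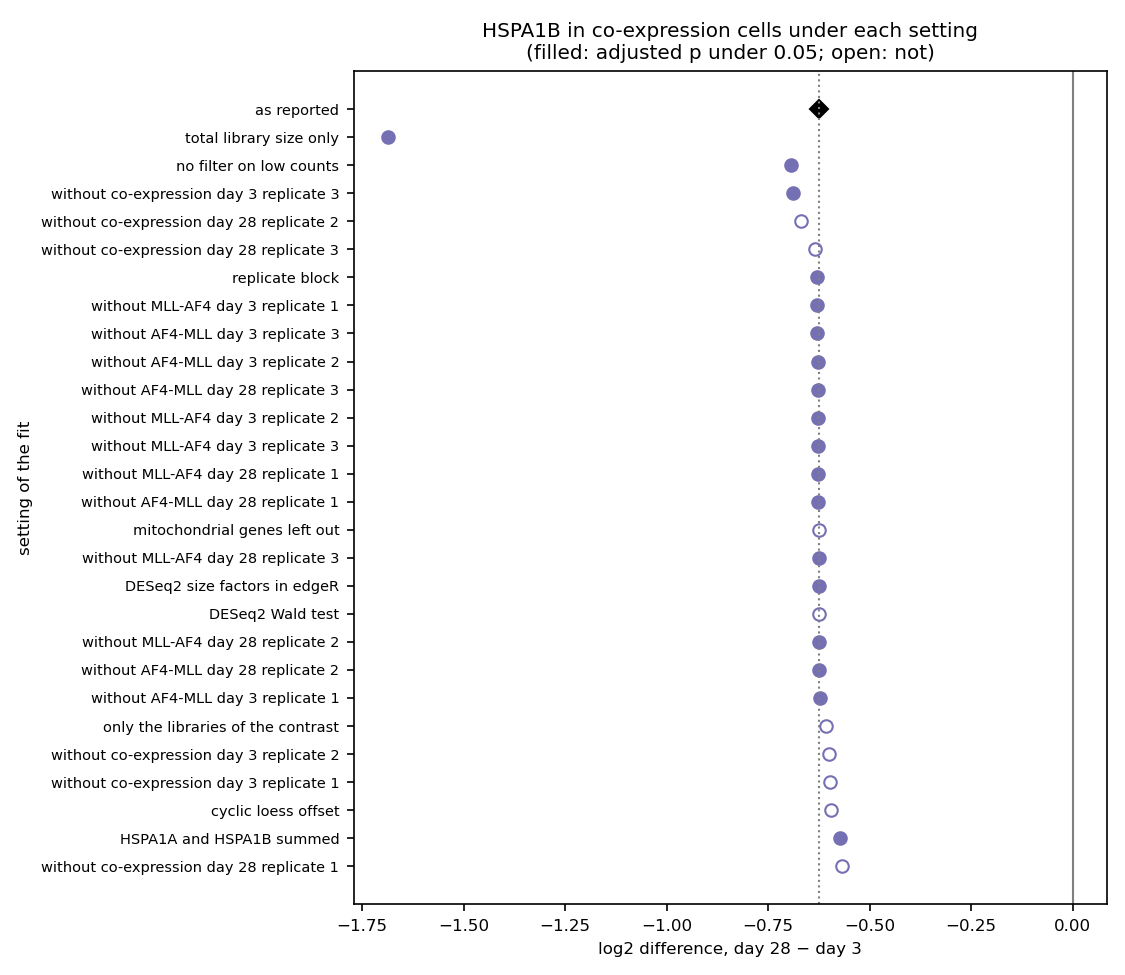
Log2 difference of HSPA1B between day 28 and day 3 in co-expression cells (x axis) under each setting of the fit (rows). The diamond is the value as reported, −0.62, filled points have an adjusted p under 0.05 and open points do not. Every point lies below 0, and only the fit without composition scaling stands apart, at −1.69.

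HSPA1A had far fewer counts, between 5 and 42 per library, and its day 28 libraries (16.9, 11.2 and 6.65 CPM) overlapped with day 3 (16.7, 18.6 and 17.8 CPM) in co-expression cells. The difference was −0.43 (SE 0.264, edgeR adjusted p 0.621). Because the 2 genes are near copies, their counts were also summed, a choice made after seeing the data. The sum was 66.3 ± 3.71 CPM on day 3 and 43.3 ± 4.31 CPM on day 28, with a log2 difference of −0.57 (SE 0.144, edgeR adjusted p 0.0184) and no overlap between the days.

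In the other settings HSPA1B showed no call. AF4-MLL cells had 38.4, 43.4 and 35.4 CPM on day 3 and 33.2, 27.6 and 28.6 CPM on day 28. These did not overlap either, as for 14% of all genes tested, and the difference was −0.37 (SE 0.178, edgeR adjusted p 0.5). MLL-AF4 cells had 29.0, 31.7 and 34.7 CPM on day 3 and 31.3, 40.2 and 38.5 CPM on day 28, which overlap, with a difference of 0.22 (SE 0.203, edgeR adjusted p 0.651). On day 3 co-expression exceeded MLL-AF4 cells by 0.61 (SE 0.19, edgeR adjusted p 0.0655), without overlap, as for 19% of all genes tested. The difference passed only with no filter on low counts (0.74, edgeR adjusted p 0.0374). In this comparison the 50 nearest tested genes had a median of 0.272, in the same direction. The change over time differed between co-expression and MLL-AF4 cells by −0.85 (SE 0.26, unadjusted p 0.00132, edgeR adjusted p 0.149). It differed between co-expression and AF4-MLL cells by −0.26 (SE 0.243, edgeR adjusted p 0.979). The fall of HSPA1B was therefore not shown to be particular to co-expression cells.

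HSPH1 encodes HSP110, a nucleotide exchange factor for HSP70, and BAG3 is a co-chaperone that links HSP70 to autophagy. Neither was called in any comparison tested. HSPH1 had 35.8, 40.3 and 25.8 CPM in AF4-MLL cells on day 28. These lay below the 43.8, 52.1 and 45.5 CPM of the same cells on day 3. They also lay below the 51.7, 46.7 and 43.9 CPM of co-expression cells on day 28. Of all genes tested, 14% and 16.8% had no overlap in these comparisons. The differences were −0.42 for day 28 against day 3 in AF4-MLL cells (SE 0.166, edgeR adjusted p 0.346) and 0.49 for co-expression against AF4-MLL cells on day 28 (SE 0.158, edgeR adjusted p 0.0843). AF4-MLL and MLL-AF4 cells differed by −0.45 on day 28 (SE 0.162, edgeR adjusted p 0.369). None of the 26 alternatives called either day 28 difference.

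BAG3 held few counts, 6 to 36 per library. In co-expression cells on day 28 it had 10.3, 11.2 and 10.6 CPM. These lay below the 23.9, 20.1 and 13.4 CPM of MLL-AF4 cells and the 20.8, 13.8 and 18.1 CPM of AF4-MLL cells. Of all genes tested, 16% and 16.8% had no overlap in these comparisons. The log2 differences were −0.85 (SE 0.272, edgeR adjusted p 0.0965) and −0.70 (SE 0.27, adjusted p 0.201), and neither was called in any of 26 alternatives, with log2 ranges of −1.01 to −0.70 and −0.86 to −0.55. PTPRC, a gene of blood cells, was also lower in co-expression than AF4-MLL cells on that day (7.92 ± 1.04 and 18.6 ± 5.36 CPM, log2 −1.22, edgeR adjusted p 0.00627), while MYH6 was not called, and the part of this difference in the values of BAG3 and HSPH1 was not tested.

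The cytosolic DNAJB1, the HSP40 partner that delivers clients to HSP70, ranged from 68.9 to 94.7 CPM over the 18 libraries, with group means between 73.9 ± 4.9 and 83.6 ± 5.0 CPM. HSP90AA1, the inducible HSP90, ranged from 29.7 to 50.1 CPM, with group means between 39.8 ± 3.6 and 44.2 ± 3.3 CPM. No group of either gene stood apart from all of the others. DNAJB1 overlaps TECR and MIR639, and HSP90AA1 overlaps WDR20, with which they can share reads.

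HSPD1 and HSPE1 encode the mitochondrial chaperonin HSP60 and its lid HSP10, and they are transcribed in opposite directions from starts 105 bases apart (chr2:197486584-197500274, minus strand, and chr2:197500379-197503449, plus strand). HSPD1 ranged from 46.5 to 75.3 CPM and HSPE1 from 37.3 to 66.9 CPM. In co-expression cells HSPD1 had 63.3, 75.3 and 66.9 CPM on day 3 and 58.8, 60.4 and 57.2 CPM on day 28. These did not overlap, as for 14.2% of all genes tested, and the difference of −0.21 did not pass the test. HSPE1 had 37.3, 53.7 and 54.0 CPM and then 51.2, 56.0 and 39.9 CPM, which overlap. Both genes have many pseudogene copies, 22 and 28, and HSPE1 lies inside the read-through gene HSPE1-MOB4.

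**Figure D4:**
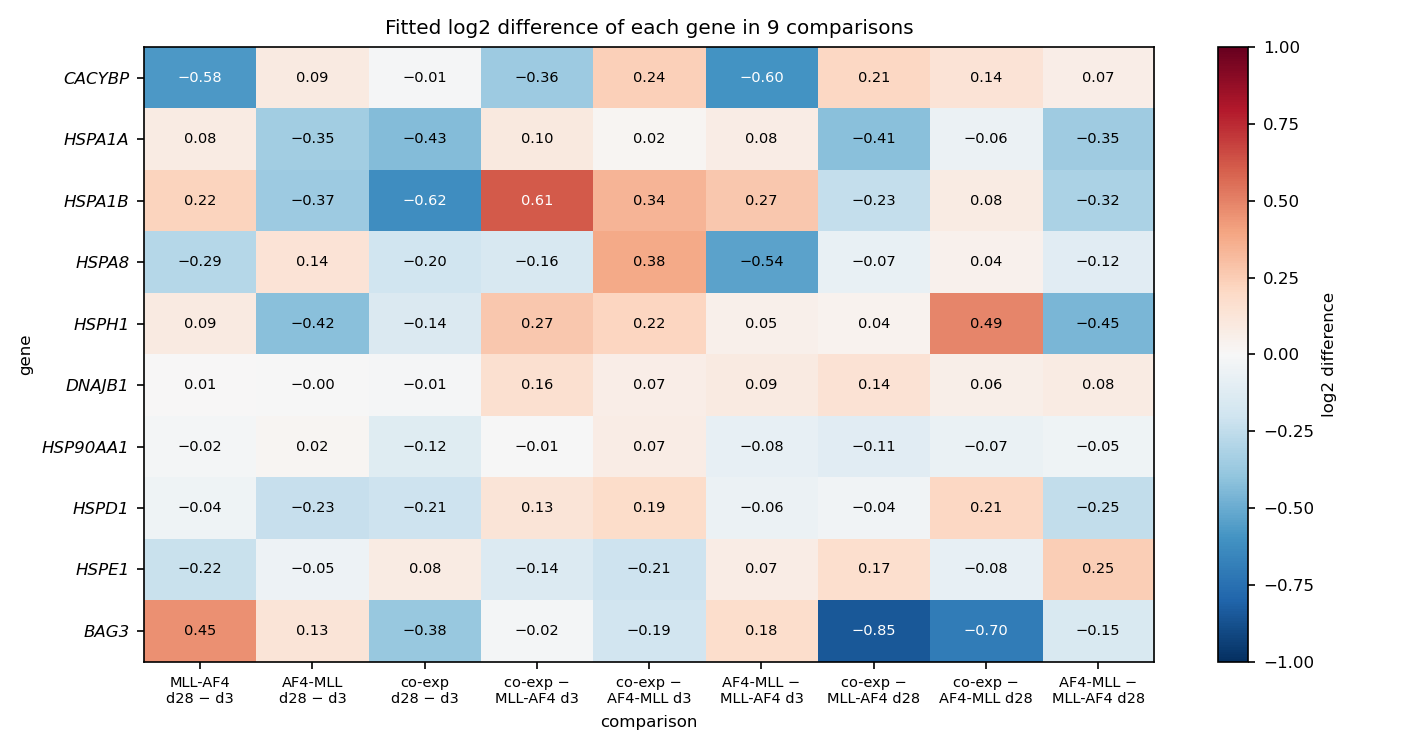
Fitted log2 differences of the 10 genes (rows) in 9 comparisons (columns), the first group minus the second, coloured from −1 (blue) to 1 (red). The lowest value is BAG3 in co-expression against MLL-AF4 cells on day 28 (−0.85) and the highest HSPA1B in co-expression against MLL-AF4 cells on day 3 (0.61); only HSPA1B in co-expression cells over time (−0.62) was called among the comparisons tested.

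Counted over the 9 heat shock genes, day 28 against day 3 gave 1 call in co-expression cells, HSPA1B lower, where edgeR called 0.606% of all genes. DESeq2 called none there. An unadjusted p under 0.05 was found for 1 of 9 genes with either tool and for 9.51% of all genes in edgeR. Of the 9 genes 8 had a negative difference in these cells, with a median of −0.197 beside −0.00131 over all genes tested. In AF4-MLL cells both tools called 0 of 9, and edgeR called 0.606% of all genes. Unadjusted p-values under 0.05 came to 2 of 9 with edgeR and 1 with DESeq2, beside 9.29% of all genes in edgeR, and 6 genes were negative with a median of −0.0509. In MLL-AF4 cells both tools called 0 of 9, and edgeR called 2.87% of all genes. There 1 of 9 with edgeR and 0 with DESeq2 had an unadjusted p under 0.05, beside 15.8% of all genes in edgeR, 4 genes were negative and the median was 0.00774.

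Between settings, edgeR and DESeq2 called 0 of 9 heat shock genes in each of the 5 comparisons tested, which leave out the comparison that drew the set. Shares of all genes below are from edgeR. On day 3, co-expression against MLL-AF4 cells had 1.81% of all genes called. An unadjusted p under 0.05 was found there for 1 of 9 with either tool and for 14.5% of all genes, and the median of the 9 was 0.0993. Co-expression against AF4-MLL cells on day 3 had 1.28% called, an unadjusted p under 0.05 for 2 of 9 with edgeR, 1 with DESeq2 and 12.3% of all genes, and a median of 0.0737. On day 28, co-expression against MLL-AF4 cells had 1.17% called, an unadjusted p under 0.05 for 1 of 9 with either tool and 11.8% of all genes, and a median of −0.0708. Co-expression against AF4-MLL cells on day 28 had 1.69% called, an unadjusted p under 0.05 for 2 of 9 with either tool and 12.7% of all genes, and a median of 0.0446. AF4-MLL against MLL-AF4 cells on day 28 had 0.0793% called, an unadjusted p under 0.05 for 1 of 9 with either tool and 8.26% of all genes, and a median of −0.154. Neither count sets the heat shock genes apart from other genes.

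The change over time was also compared between settings. Neither edgeR nor DESeq2 called any of the 9 genes, and edgeR called 0.232% of all genes for co-expression against MLL-AF4 cells and 0% for co-expression against AF4-MLL cells. In the first, an unadjusted p under 0.05 was found for 2 of 9 with edgeR (HSPA1B and BAG3), for 1 with DESeq2 and for 9.73% of all genes in edgeR, with a median of −0.167. In the second it was found for 0 of 9 with either tool and for 5.05% of all genes in edgeR, with a median of −0.0848.

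Across the 18 libraries, pairs of the 10 genes mostly correlated weakly. The Pearson correlation of log2 CPM over the 45 pairs had a median of 0.109. It ran from −0.406 (DNAJB1 with HSP90AA1) to 0.611 (HSPA1B with HSPH1), as a description over 18 libraries that share depth and day. Counting noise can lower such values, as at the few counts of HSPA1A and BAG3, and pairs of other genes were not compared. CACYBP correlated best with HSPA8 among the 9 (0.485), and its correlation with all genes compared had a median of 0.045. All its correlations include the libraries that selected CACYBP.

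The 4 genes that followed CACYBP most closely, among 6097 with a mean of at least 30 counts, were GADD45A (0.915), ZEB2 (0.856), PERP (0.85) and HACL1 (0.813). GADD45A, a stress-induced growth arrest gene, had 132 ± 3.61 CPM in MLL-AF4 cells on day 3 and between 98.3 and 113 CPM as means of the other groups. ZEB2, a zinc finger repressor, had 158 ± 7.04 CPM against means between 97.3 and 119. All 4 were highest in MLL-AF4 cells on day 3, which is the group that sets the pattern of CACYBP. This follows largely from how the 4 were picked, over libraries that include those that selected CACYBP.

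**Figure D5:**
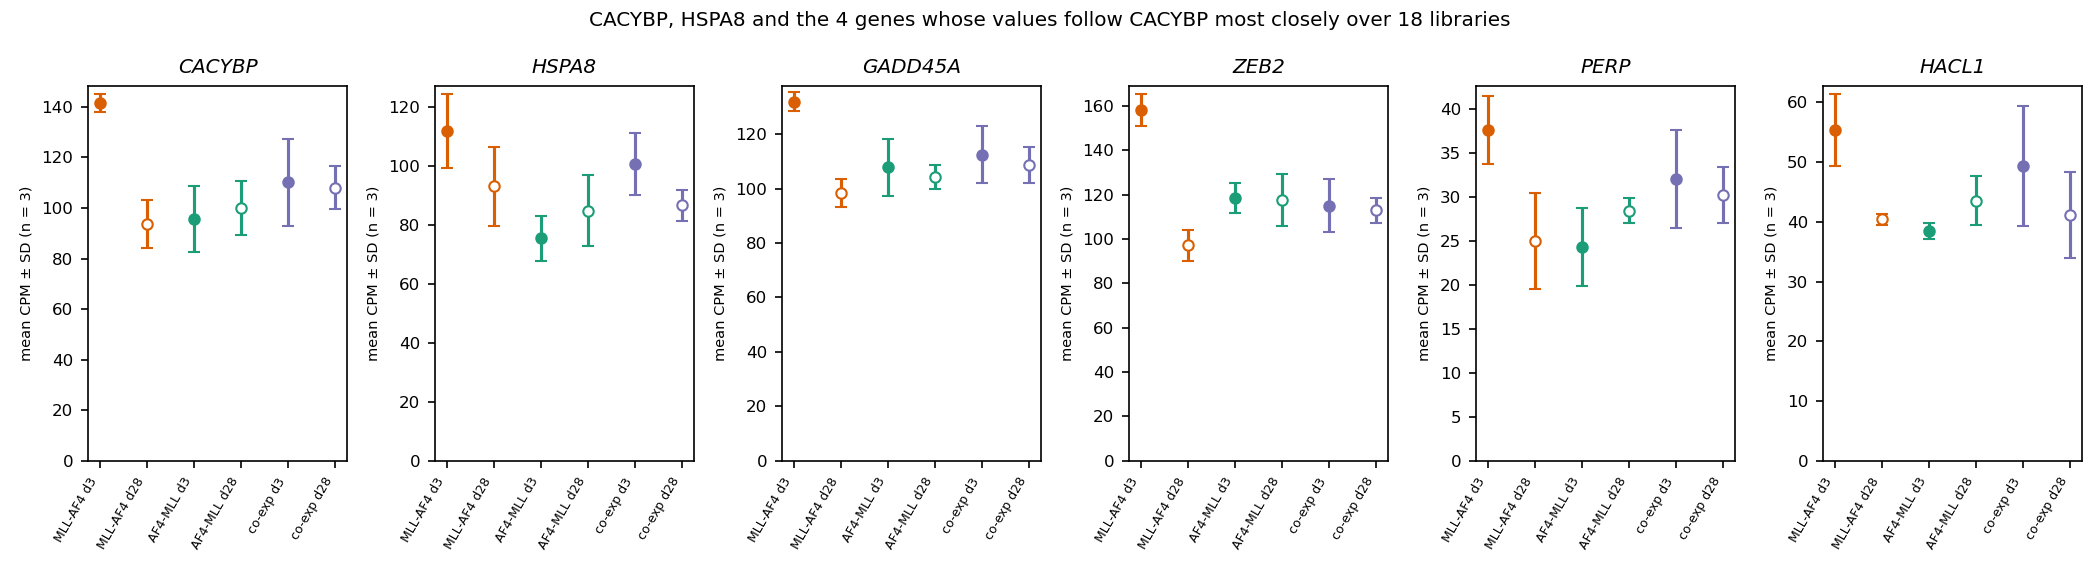
Mean CPM ± SD (n = 3; y axes from 0) by setting and day (filled day 3, open day 28) for CACYBP, HSPA8 and the 4 genes with the highest Pearson correlation with CACYBP over 18 libraries. In each of the 6 panels MLL-AF4 cells on day 3 have the highest mean, for example 158 ± 7.04 CPM for ZEB2. For the 4 genes this follows largely from how they were picked.

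Other chaperone genes were followed as lists. In the comparisons of 2 groups edgeR called between 0.0793% and 2.87% of all genes. The lack of a call in lists this short therefore does not set them apart from other genes. Of 34 cytosolic and nuclear chaperones and co-chaperones 31 were tested. DNAJC7, an HSP70 and HSP90 co-chaperone, fell in AF4-MLL cells from 50.1 ± 2.19 to 32.4 ± 8.02 CPM (log2 −0.66, edgeR adjusted p 0.0175) and on day 28 co-expression cells exceeded AF4-MLL cells (0.57, adjusted p 0.0375). BAG5 fell in MLL-AF4 cells from 34.5 ± 2.94 to 20.8 ± 2.0 CPM (−0.74, edgeR adjusted p 0.0468). DNAJB6, an HSP40 that suppresses aggregation, was higher in co-expression cells on day 3 (86.8 ± 16.2 CPM) than in AF4-MLL cells (47.3 ± 5.14 CPM; 0.83, edgeR adjusted p 1.78e-05). In the comparison that drew the set, DNAJB6 differed by −0.68, given as a description. None of the 31 was called in co-expression cells over time, in co-expression against MLL-AF4 cells on either day or in AF4-MLL against MLL-AF4 cells on day 28.

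Of 12 mitochondrial chaperones, all tested, only CLPX was called. It was higher in co-expression cells on day 3 (15.7 ± 5.30 CPM) than in MLL-AF4 cells (5.49 ± 1.29 CPM; 1.51, edgeR adjusted p 0.0182) and AF4-MLL cells (7.25 ± 1.23 CPM; 1.14, edgeR adjusted p 0.0469), at 4 to 32 counts per library in these groups. None of the 8 subunits of the chaperonin TRiC and none of the 6 tested of 7 heat shock factors and regulators was called. HSF1 itself had group means between 18.2 ± 7.51 and 24.0 ± 4.99 CPM. Of 7 partners of CACYBP 6 were tested, and CUL1, a cullin scaffold of ubiquitin ligases, was higher on day 28 than on day 3 in MLL-AF4 cells (17.2 ± 1.88 to 30.9 ± 2.18 CPM; 0.84, edgeR adjusted p 0.0354) and lower in co-expression than MLL-AF4 cells on day 28 (−0.79, edgeR adjusted p 0.03). No other of the 6 was called in any comparison.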

How the data were processed

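ATAC-seq counts per gene were analysed in 18 libraries of HEK293T cells, 3 replicates by the labels in each of 6 groups. The authors deposited raw counts, whole numbers for 54425 genes. The submitters' processing notes name bcl2fastq, Bowtie2, HTSeq and the build GRCh38. Versions, the counted feature, and the handling of duplicate and multiply mapped reads and of the transposase shift are not given in the sources used here. The study's own test was DESeq2 with geometric mean normalisation. Of the gene entries, 116 merge several identifiers. No file of other units was used. The text names all 10 genes in every comparison, for each comparison and direction up to 2 called genes of the other lists by adjusted p, and the genes most like CACYBP. Some items that these rules take in are not reported here.

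All libraries were fitted together in R 4.3.3 with edgeR 4.0.16 (6 groups, TMM, filterByExpr with minimum count 10 and minimum total 15, quasi-likelihood F tests). A call is a Benjamini-Hochberg adjusted p under 0.05 over all 17660 genes. The biological coefficient of variation was 7.48%. DESeq2 1.42.0 and limma 3.58.1 (cyclic loess) served as alternatives. The labels do not say that replicates came from separate cultures, so p-values measure only the spread between these libraries, which may be technical. CPM values use a prior count of 2 only where on the log2 scale. The fit was tested on simulated data with known changes. RefSeq symbols matched 14914 of the tested genes (84.5%). The RefSeq coordinates are of GRCh38.p14 and were used for names, neighbours and promoter windows.

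The genes and lists were chosen with earlier results of these data known. Comparisons of CACYBP that share the libraries which selected it are given without a test. Levels were not compared between genes, since the counted length is not given.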

Additional observations from a re-analysis of the deposited data

How the results depend on the processing

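For the 9 heat shock genes, day 28 against day 3 gave 1 call in 27 tests. It gave 26 calls with total library size as the only scaling, where the median of all genes moved to −1.06, −0.87 and −1.07 for AF4-MLL cells, MLL-AF4 cells and co-expression cells. It gave 0 calls with the mitochondrial genes left out, with the cyclic loess offset, in DESeq2, with only the libraries of the contrast and with the study's thresholds (unadjusted p, log2 over 1, mean count over 2). Leaving out single libraries gave 0 to 1 calls. The comparisons between settings went from 0 calls to 1 with no filter on low counts, and stayed at 0 without any single library. The interactions gave 0 calls under every alternative.

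CACYBP in co-expression cells, day 28 against day 3, was −0.01 and changed sign to 0.0403 with the cyclic loess offset and to 0.00621 with only the libraries of the contrast, and was −0.13 to 0.11 without single libraries. It was −1.09 with total library size. CACYBP in AF4-MLL against MLL-AF4 cells on day 28 ran from −0.0102 to 0.173 without single libraries. HSPA1B ran from −0.69 to −0.57. The causes were not tested.

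The replicate block gave 1 call for day 28 against day 3, as the unblocked fit did, with HSPA1B at −0.63 (edgeR adjusted p 0.0392), and changed no other call. Equal replicate numbers gave no sign of pairing: the correlation of their deviations ran from −0.0915 to 0.0374 over 45 pairs. Counting noise can lower such correlations, so this does not show that the libraries were unpaired.

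The counts of HSPA1A and BAG3, under 45 per library, limit what a test of them can show, with SEs of up to 0.296 and 0.313.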
